A study of Homo sapiens with 4 samples.

Results

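The genes described here are the C/D box small nucleolar RNA (snoRNA) genes, taken as every gene symbol that starts with SNORD in the deposited RPKM tables. They made up 257 of 23284 gene rows. RNA came from 4 libraries of A375, an established human melanoma line. The vector library was from cells stably carrying the empty pcDNA3 plasmid, and the overexpression library from cells stably carrying pcDNA3-MAGE-A1. The scramble library was from cells carrying pRNAT-scramble, and the knockdown library from cells carrying pRNAT-shMAGE-A1. The labels name vector as the control of overexpression and scramble as the control of knockdown. Where 4 values stand in a row below, they follow the order vector control, MAGE-A1 overexpression, scramble control, MAGE-A1 knockdown. Each group was 1 library, and the labels do not say whether a stable line was 1 clone or a pool. There was therefore no replicate check and no test, and every difference below compares libraries, not conditions.

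C/D box snoRNAs are short nucleolar RNAs that guide 2'-O-methylation of ribosomal and spliceosomal RNA. They are named after the C box near the 5' end and the D box near the 3' end, which the proteins of the particle (NOP58, NOP56, SNU13 and the methyltransferase fibrillarin) bind. In vertebrates most are cut out of introns of host genes, many of which encode ribosomal proteins or translation factors or are noncoding. SNORD113 and SNORD114 lie in an imprinted cluster expressed from the maternal chromosome, and SNORD115 and SNORD116 in a cluster expressed from the paternal chromosome that is best known from brain and Prader-Willi syndrome. Mature snoRNAs carry no poly(A) tail, and per the labels these libraries were made after poly(A) selection of total RNA.

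By host, 45 of the genes lay in translation genes, 36 in noncoding genes, 60 in other protein-coding genes and 110 in the SNORD113 to SNORD116 clusters. The clusters held 7 SNORD113, 31 SNORD114, 45 SNORD115 and 27 SNORD116 rows. The other 5 members at the SNORD116 locus were SNORD64, SNORD107, SNORD108, SNORD109A and SNORD109B, and SNORD32B had no host. The SNORD genes with promoters of their own (SNORD3, SNORD13, SNORD118) had no row among the 257 members and so were not analysed here.

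The sequences of the members on which the results turn are given next, from GENCODE 29 matched by symbol, 5' to 3', with coordinates on GRCh38 (the files' own build is hg19). Capitals mark a C box written as TGATGA in the first 25 bases and a D box written as CTGA in the last 20 bases. SNORD42A, in an intron of the ribosomal protein gene RPL23A at chr17:28723429-28723492 (+ strand), had the smallest overexpression ratio among abundant members. SNORD26, in the noncoding gene SNHG1 at chr11:62855292-62855366 (- strand), had one of the largest.
SNORD42A: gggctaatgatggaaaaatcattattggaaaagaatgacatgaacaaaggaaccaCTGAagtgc
SNORD26: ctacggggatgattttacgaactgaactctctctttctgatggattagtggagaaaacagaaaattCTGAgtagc
SNORD18A, SNORD18B and SNORD18C lie in introns of RPL4, on the minus strand at chr15:66503243-66503314, chr15:66502020-66502091 and chr15:66501250-66501318. They are shown because copies in the same host differed widely in level. SNORD18A stood 16 edits from SNORD18B.
SNORD18A: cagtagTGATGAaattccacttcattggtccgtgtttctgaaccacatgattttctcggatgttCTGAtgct
SNORD18B: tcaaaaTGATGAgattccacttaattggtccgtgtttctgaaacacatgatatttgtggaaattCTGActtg
SNORD18C: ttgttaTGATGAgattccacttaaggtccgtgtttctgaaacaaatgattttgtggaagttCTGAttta
SNORD32A, in RPL13A at chr19:49489965-49490048 (+ strand), and SNORD32B, at chr6:29582249-29582332 (+ strand), are shown as a copy with a translation gene host and one without a host. They differed by 9 edits over 84 bases.
SNORD32A: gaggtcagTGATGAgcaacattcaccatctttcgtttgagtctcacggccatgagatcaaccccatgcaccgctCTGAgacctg
SNORD32B: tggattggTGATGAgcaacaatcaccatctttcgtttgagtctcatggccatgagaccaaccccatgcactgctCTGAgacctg
SNORD116-29, at chr15:25106521-25106603 (+ strand), SNORD116-1, at chr15:25051477-25051571 (+ strand), and SNORD116-4, at chr15:25059538-25059633 (+ strand), lie within SNHG14. The first had the highest RPKM of its family, and the last the smallest overexpression ratio of it.
SNORD116-29: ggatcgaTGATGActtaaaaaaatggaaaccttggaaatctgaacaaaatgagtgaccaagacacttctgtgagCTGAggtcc
SNORD116-1: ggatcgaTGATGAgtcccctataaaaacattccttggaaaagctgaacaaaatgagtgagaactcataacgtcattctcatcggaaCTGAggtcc
SNORD116-4: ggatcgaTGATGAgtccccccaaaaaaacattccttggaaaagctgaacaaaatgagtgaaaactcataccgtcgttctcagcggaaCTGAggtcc

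A TGATGA C box was found in 174 of the 237 members with a sequence (73.4%), a CTGA D box in 228 (96.2%) and both in 171 (72.2%). Only the sense strand was searched. For comparison, 0.704% of 142 H/ACA snoRNA (SNORA) transcripts and 0.597% of 1674 miRNA hairpins of 60 to 110 nt had the C box in the same window, and 8.45% and 8.36% had the D box. SNORD42A and SNORD26 have the D box letters but not TGATGA. Both boxes were found in 26 of 27 SNORD116 members, 37 of 44 SNORD115, 20 of 30 SNORD114 and 28 of 45 members in translation gene hosts. Of the sequences, 6 sets were shared exactly by 14 genes, including SNORD116-3 with SNORD116-9 and SNORD116-5 with SNORD116-7. Reads of such copies cannot be assigned with certainty.

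MAGEA1, the targeted gene, was at 1.80, 126, 0.767 and 0.473 RPKM. Estimated depth was 12800000 to 24440000 reads per library. Of the melanocyte markers, SOX10 was at 281 to 336 RPKM and MITF at 7.17 to 11.4, whereas PMEL, MLANA, TYR and TYRP1 were under 1 RPKM in all 4 libraries. The other 2 of the 8 markers differed past 2-fold within a pair: S100B was at 88.8, 17.4, 49.5 and 67.5 RPKM and DCT at 3.61, 2.15, 8.16 and 1.14 RPKM. Summed levels of the fibroblast, keratinocyte, leukocyte and endothelial lists reached at most 6.41 RPKM, and that of the neuron list 23.6, in the overexpression library. The latter was nearly all SYT1 (23.4 RPKM there, 3.62 in the vector library), while SNAP25 went from 1.07 to 0.128 and RBFOX3 from 0.246 to 0.0637 RPKM. Whether these markers have a part in the SNORD differences was not tested.

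RPKM in its plain form divides reads by gene length and depth. For genes this short a single read was worth far more in these values than that division gives. The values of small RNA genes stepped in whole multiples, from which the RPKM of 1 read could be estimated at each length. In the vector library 1 read was worth 119 RPKM at 61 nt, 62.5 at 71 nt, 20.7 at 94 nt and 4.56 at 142 nt. In the overexpression library it was worth 222, 118, 39.5 and 8.802 RPKM at those lengths. The value of a read thus fell faster than the length rose. Whether the values hold a further correction for length was not tested. Of member values worth 1 to 10 reads, 93.4% (71 of 76), 90.9% (30 of 33), 94.9% (56 of 59) and 89.5% (34 of 38) came within 0.05 of a whole read, where 10% would by chance. These values also helped to place the curve. Estimated member reads summed to 6282, 32822, 2132 and 39627. That was 0.0257%, 0.256%, 0.0132% and 0.20% of the estimated depth, yet the same genes made up 43.8%, 83.8%, 27.4% and 71.5% of all summed RPKM. Read estimates are therefore given beside RPKM. Intervals and floors below cover counting error only.

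**Figure D1:**
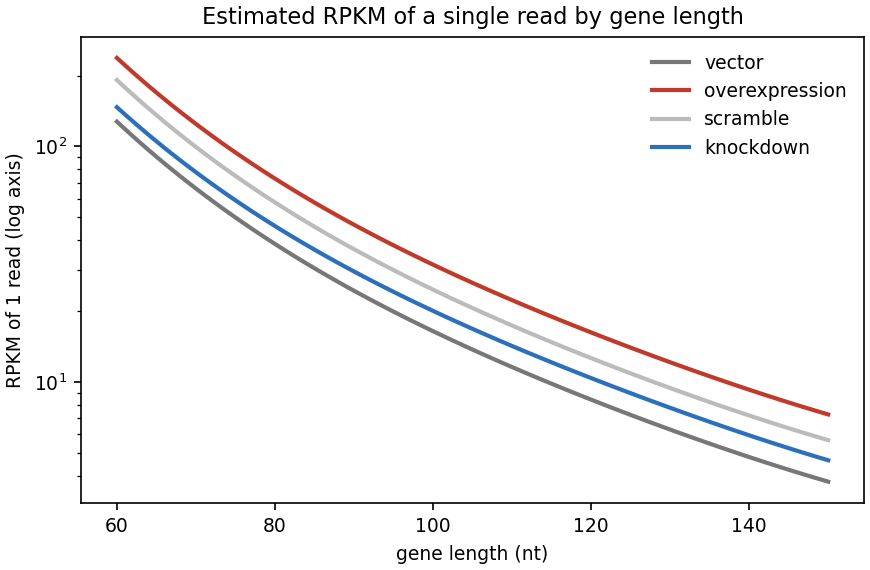
Estimated RPKM of 1 read (y, log axis) against gene length in nucleotides (x), one line per library. A read of a 61 nt gene was worth 119 RPKM in the vector library and one of a 142 nt gene 4.56 RPKM, and the overexpression line lies above the other three at every length.

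C/D box snoRNA genes were higher in both MAGE-A1 libraries than in their own controls. Of 165 members at 1 RPKM or more in overexpression or vector, 157 were at least 2-fold higher in overexpression and 4 lower, where over all 13577 measured genes 10.6% were higher and 7.28% lower. The median log2 ratio of RPKM + 1 was 4.18, against 0.02 over all genes. Of 163 members measured in knockdown or scramble, 160 were higher in knockdown and 0 lower, where over all 13569 genes 12.4% were higher and 8.52% lower. Their median log2 ratio was 5.67, against 0.06 over all genes. Both MAGE-A1 libraries, the one made to raise and the one made to lower MAGEA1, thus lay on the same side of their controls. Of the 168 members at 1 RPKM or more in any library, 155 (92.3%) were higher in each MAGE-A1 library than in each control. Over all 14040 such genes the share was 20.4%. The SNORD count leans on listed zeros: 32 of the 168 were above 0 only in MAGE-A1 libraries, and 3 only in controls. A single read of a gene this short is worth more than 1 RPKM, so the share over all genes is not a like comparison. In such bulk libraries more cells with a transcript and more of it per cell cannot be told apart.

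The controls differed from each other as well. Of 136 members measured in scramble or vector, 87 were lower in scramble and 7 higher, where over all 13326 genes 1.79% were lower and 0.893% higher. The median log2 ratio was -1.51. Listed zeros weigh on these medians: 124, 96, 163 and 94 members were listed at 0. Over members above 0 in both libraries of a pair the median log2 ratio was 3.76 for overexpression (129 members), 3.96 for knockdown (94) and -0.999 for scramble against vector (91). A pseudocount of 1 RPKM is a small part of a read at these lengths and so inflates a ratio over a listed 0. With listed zeros set to 3 reads the medians were 3.39, 3.14 and -0.52, the last within 2-fold. On that footing 155 of 165 members were higher and 1 lower in overexpression, 139 of 163 higher and 4 lower in knockdown, and 47 of 136 lower and 28 higher in scramble against vector. It puts a member with 1 or 2 reads below a library where it was listed at 0, so single reads can turn its direction. By reads, the 95% interval of the ratio lay wholly above 1 in 144 of 164 members for overexpression and in 135 of 162 for knockdown, and wholly below 1 in 0 of either. It lay wholly below 1 in 45 of 135 for scramble against vector.

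**Figure D2:**
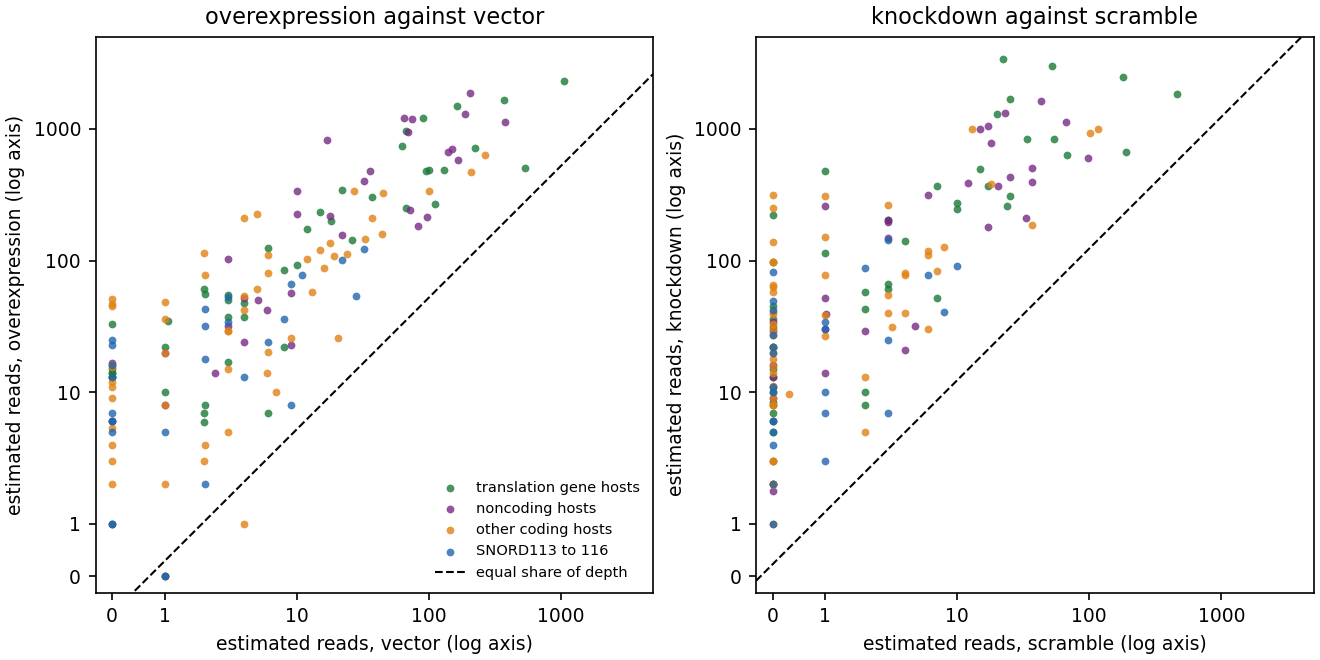
Estimated reads of each member in the control (x) and in the MAGE-A1 library (y), both log axes with 0 drawn at the edge, coloured by host; the dashed line is an equal share of the estimated depth. Nearly all points lie above the line in both panels, with many at 0 in the control.

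Per 1000000 reads of estimated depth, all members together gave 257, 2564, 132 and 1995 reads. The overexpression sum was 9.98 times the vector sum (95% interval 9.71 to 10.3) and the knockdown sum 15.1 times the scramble sum (14.4 to 15.7). Members in translation gene hosts stood at 8.09 times (7.79 to 8.41) and 13.5 times (12.8 to 14.3). Those in noncoding hosts stood at 13.6 times (12.9 to 14.3) and 18.8 times (17.2 to 20.6). Those in other coding hosts stood at 9.29 times (8.68 to 9.96) and 15.1 times (13.6 to 16.9). For SNORD116 the ratios were 10.49 times (8.77 to 12.6) and 17.0 times (12.4 to 24.0). Its interval held the ratio of all members in both pairs. Sums lean on the members with most reads. SNORD42A alone gave 536 of the 3263 vector reads in translation gene hosts. With zeros at 3 reads, the median folds in overexpression were 16.4 in translation, 14.3 in noncoding and 9.45 in other coding hosts. In knockdown they were 11.3, 13.6 and 8.04. The order of the kinds of host thus depends on the measure.

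Other RNAs without a poly(A) tail moved the same way. RMRP, the RNA of RNase MRP, was at 1313, 3449, 1669 and 9573 RPKM. RPPH1, the RNA of RNase P, was at 58.8, 206, 99.6 and 773 RPKM, and the telomerase RNA TERC at 1.47, 12.99, 0.73 and 26.2 RPKM. Replication-dependent histone genes, whose mRNAs end in a stem-loop and not a tail, were higher in 40 of 60 measured in overexpression and 51 of 61 in knockdown, with 0 lower in either. Their summed level was 542, 2157, 734 and 2676 RPKM. In scramble against vector 10 of 58 histone genes were higher and 0 lower, the opposite side to the SNORD genes. How much tail-less RNA each library held after selection was not measured, and its part in the SNORD result was not tested.

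In translation gene hosts, 43 of 44 measured members were higher in overexpression (median log2 ratio 4.36) and 44 of 44 in knockdown (5.61). Of these ratios 6 and 16 have a listed 0, and with zeros at 3 reads the medians were 4.04 and 3.50, in the opposite order. The median fold over all SNORD members above 0 in both libraries was 13.7 in overexpression and 15.7 in knockdown. SNORD42A was at 63626, 111820, 33710 and 91923 RPKM, from 536, 505, 189 and 671 reads. It was thus the one translation-hosted member within 2-fold in overexpression (1.76-fold, 1.55 to 1.99), and it was 2.73-fold higher in knockdown (2.32 to 3.22). Rescaled to a common sum of all RPKM, which lowers nearly every gene in the MAGE-A1 libraries, SNORD42A came out lower in both pairs (log2 -1.41 in overexpression and -0.75 in knockdown).

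SNORD100, in RPS12, was at 7652, 132133, 3687 and 166894 RPKM, a fold of 17.3 (14.6 to 20.4) in overexpression and 45.3 (34.4 to 60.6) in knockdown. SNORD83B, in RPL3, had 90, 1209, 22 and 3410 reads, folds of 25.6 (20.7 to 32.2) and 125 (82.5 to 200). SNORD32A had 372, 1658, 180 and 2490 reads, folds of 8.46 (7.56 to 9.49) and 11.01 (9.46 to 12.9). Its hostless copy SNORD32B was listed at 0 in all 4 libraries. The intervals of SNORD100, SNORD83B and SNORD32A did not overlap in either pair. In overexpression those of SNORD100 and SNORD83B nearly met, at 20.4 and 20.7. These members were picked after their values were seen.

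Copies in the same host were not at the same level. SNORD18A had 95, 478, 15 and 494 reads. SNORD18B had 0, 33, 0 and 22, and SNORD18C 0, 13, 0 and 5. Over a floor of 3 reads in the library listed at 0, SNORD18B was 20.6-fold higher in overexpression and 5.71-fold in knockdown. SNORD18A was 9.48-fold (7.58 to 11.9) and 25.8-fold (15.4 to 46.3) higher, so the bound of SNORD18B lay above its fold in the first pair and below it in the second.

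In noncoding hosts all 32 measured members were higher in overexpression (median log2 ratio 4.17) and all 32 in knockdown (5.01), medians that were 3.84 and 3.76 with zeros at 3 reads. GAS5, a noncoding gene whose introns carry 10 members, held both high and low ones. SNORD44 had its highest RPKM in vector (17787) and overexpression (154841), with 150, 699, 20 and 370 reads. SNORD76 was at 7483, 130682, 2368 and 71126 RPKM and SNORD79 at 13830, 78158, 5341 and 26371 RPKM. SNORD77 was listed at 0 in all but the knockdown library (137 RPKM, about 2 reads), and SNORD81 in all but overexpression (1428 RPKM, 17 reads). SNORD76 was 17.5-fold higher in overexpression (15.1 to 20.3), SNORD79 5.65-fold (5.02 to 6.37).

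SNHG1 carries 8 members, all higher in both pairs. SNORD26 had 17, 820, 18 and 784 reads, folds of 91.3 (56.5 to 157) and 34.4 (21.6 to 58.2). SNORD27 had 65, 1218, 23 and 1313 reads, folds of 35.4 (27.5 to 46.0) and 44.9 (29.7 to 70.8). SNORD31 had 74, 1180, 15 and 989 reads, folds of 30.0 (23.7 to 38.4) and 51.4 (31.0 to 92.0). The lowest ratio among noncoding hosts in overexpression was that of SNORD12 in ZFAS1 (also listed as ZNFX1-AS1), from 83 to 182 reads (4.19-fold, 3.21 to 5.49), which a common sum turned to a log2 ratio of -0.15.

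In other coding hosts 54 of 57 members were higher in overexpression and 2 lower, and 56 of 57 were higher in knockdown and 0 lower. Of these ratios 15 in overexpression and 31 in knockdown have a listed 0. With zeros at 3 reads the median log2 ratios were 3.24 and 3.01. SNORD5, in TAF1D, had 5, 226, 0 and 315 reads. It was 85.3-fold higher in overexpression (36.0 to 265) and, over a floor of 3 reads, 82.3-fold higher in knockdown. SNORD117, in DDX39B, had 0, 45, 0 and 41 reads, 28.3-fold and 10.8-fold higher over the same floor. SNORD89, in RNF149, had 13, 58, 0 and 249 reads. It was 8.59-fold higher in overexpression (4.66 to 17.1) and, over that floor, 68.0-fold higher in knockdown. SNORD20, in NCL, went from 1 to 48 reads in overexpression, a ratio of 91.1 whose interval ran from 15.6 to 3668.

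The few members on the other side rested on single reads. All 4 called lower in overexpression (SNORD114-23, SNORD115-28, SNORD19 and SNORD61) had 1 read in the vector library and were listed at 0 in overexpression, and each interval ran from 0 to over 73.4-fold higher. SNORD94 had 4 vector reads and 1 overexpression read, a ratio of 0.483 (0.00981 to 4.88).

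**Figure D3:**
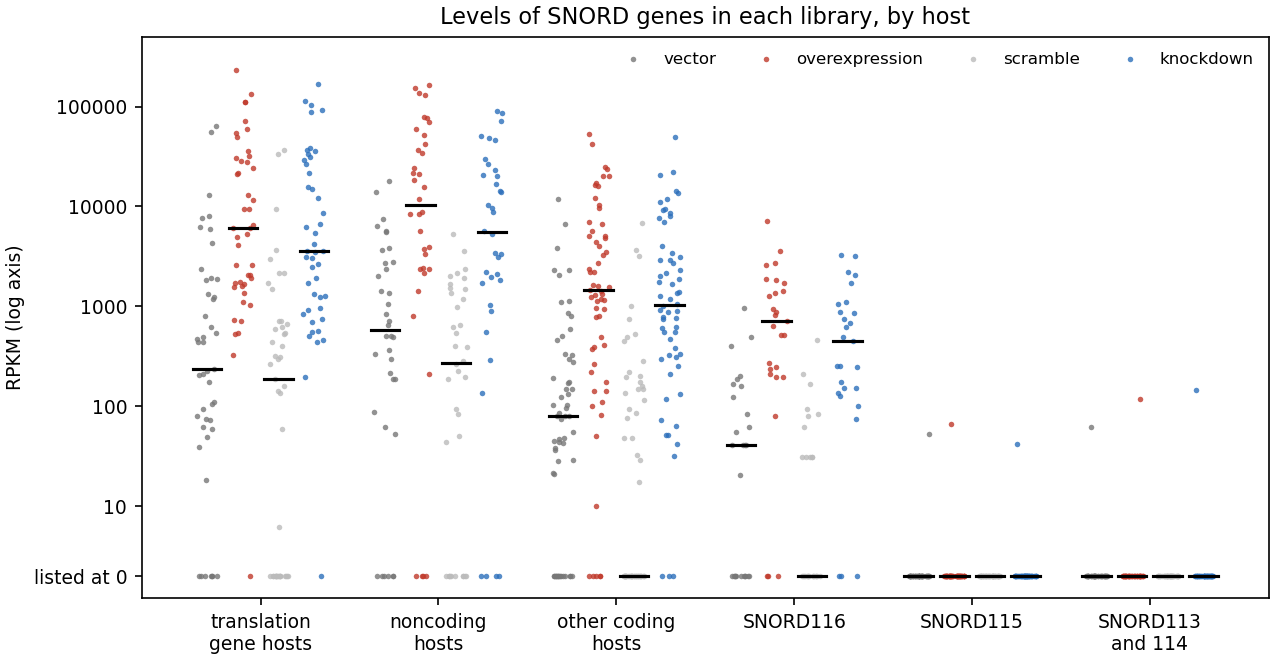
RPKM (y, log axis) of every member with one of the hosts named on the x axis, one point per gene and library, with members listed at 0 on the lowest line; black bars are medians over all members of the group. In translation, noncoding and other coding hosts and in SNORD116 both MAGE-A1 libraries have the higher medians, while SNORD113, SNORD114 and SNORD115 are nearly all at 0.

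The imprinted clusters split sharply. All 7 SNORD113 genes were listed at 0 in all 4 libraries, as were 29 of 31 SNORD114 and 42 of 45 SNORD115 genes. Of 27 SNORD116 genes, 24 were above 0 in at least 1 library. SNORD114-23 had 1 read, in the vector library, and SNORD114-28 had 0, 1, 0 and 2 reads. SNORD115-28, SNORD115-38 and SNORD115-39 had 1 read each, in the vector, overexpression and knockdown library. No fold is given for any of these, since both libraries were at or under the floor of 3 reads.

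SNORD116 summed to 144, 791, 40 and 839 reads, or 2.29%, 2.41%, 1.88% and 2.12% of all member reads. Of 24 measured copies, 22 were higher in overexpression and 23 in knockdown, with 0 lower. Of these ratios 8 in overexpression and 12 in knockdown have a listed 0. The median log2 ratios were 4.24 and 5.96, and with zeros at 3 reads they were 3.12 and 2.66. SNORD116-29 was at 973, 7121, 456 and 3290 RPKM from 32, 123, 10 and 90 reads, folds of 7.32 (4.92 to 11.2) and 7.21 (3.74 to 15.5). SNORD116-1 had 11, 77, 6 and 77 reads, folds of 13.4 (7.09 to 28.0) and 10.4 (4.56 to 29.2). SNORD116-2 had 22, 101, 3 and 143 reads, 8.79-fold (5.502 to 14.6) and 38.6-fold (12.9 to 190). These 3 copies lay well above the zeros and single reads of SNORD115.

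SNORD116-4 had 9, 8, 3 and 7 reads and was within 2-fold in both pairs, at 1.70 (0.572 to 4.97) and 1.89 (0.432 to 11.3), and lower in both after scaling to a common sum (log2 -1.45 and -1.27). SNORD116-19, with 2 reads in each library of the overexpression pair, was within 2-fold there. SNORD116-3, with 0, 25, 0 and 22 reads, and SNORD116-9, with 0, 23, 0 and 20, have identical sequences, so their reads cannot be told apart. SNORD116-10, SNORD116-18 and SNORD116-28 were listed at 0 in all 4 libraries. The 3 copies with most reads in the overexpression library, SNORD116-29, SNORD116-2 and SNORD116-1, carry numbers from both ends of the family.

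**Figure D4:**
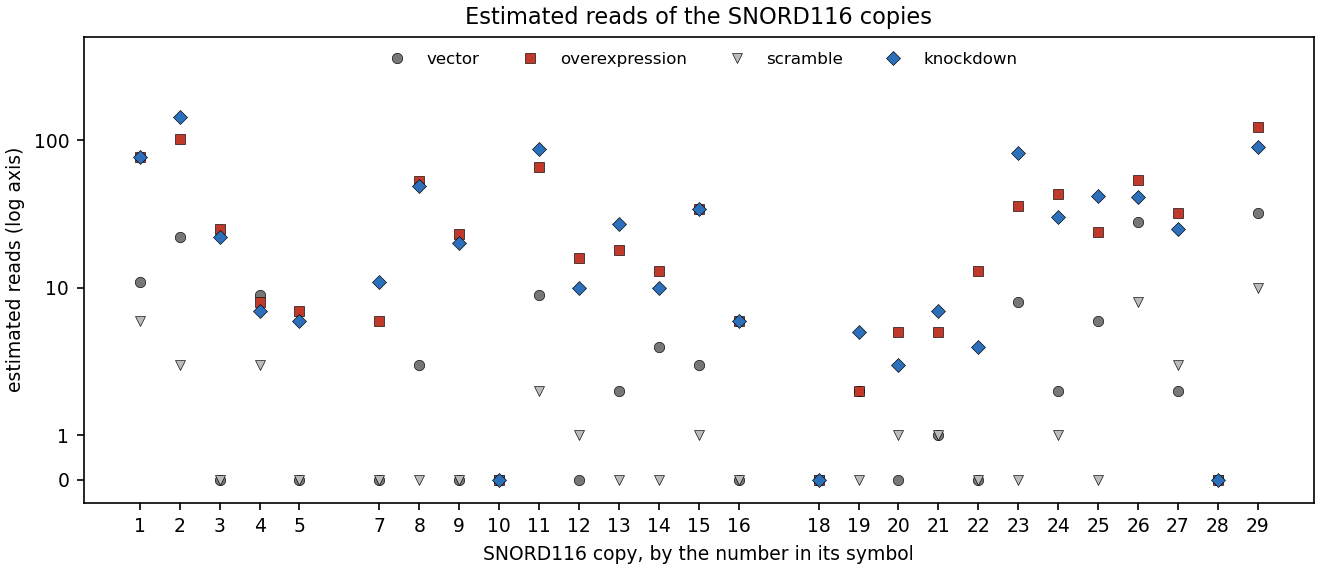
Estimated reads (y, log axis with 0 drawn at the bottom) of each SNORD116 copy (x, by the number in its symbol) in the 4 libraries. Copies 1, 2 and 29 have 77 to 143 reads in the MAGE-A1 libraries, and copies 10, 18 and 28 have 0 everywhere.

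Host transcripts differed less than the members in their introns. Of 65 host genes measured in the overexpression pair 13 were higher and 1 lower (median log2 ratio 0.23), beside 10.6% and 7.28% of all genes. Of 66 measured in the knockdown pair 16 were higher and 1 lower (0.61), beside 12.4% and 8.52%. With listed zeros of SNORD genes set to 3 reads, the median of a host's SNORD genes lay above the host's own ratio in 60 of 63 hosts with a measured member for overexpression and in 58 of 64 for knockdown. Over SNORD genes above 0 in both libraries it did so in 53 of 55 and 41 of 42. Among translation gene hosts 0 of 22 were higher in overexpression and 1, EEF2, was lower (log2 -1.24). Of 23 in knockdown 8 were higher. Among noncoding hosts 6 of 7 were higher in overexpression and 4 of 7 in knockdown; the difference between kinds of host was not tested.

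RPL4 was at 273, 213, 325 and 660 RPKM and the median log2 ratio of its 4 members, with zeros at 3 reads, was 3.34 in overexpression and 2.54 in knockdown. GAS5 was at 199, 1087, 169 and 458 RPKM and SNHG1 at 54.6, 199, 54.5 and 84.1 RPKM, with log2 ratios of 2.45 and 1.43 for GAS5 and 1.85 and 0.62 for SNHG1. Their SNORD medians on the same footing were 4.13 and 3.81 for GAS5 and 4.78 and 4.88 for SNHG1. Across hosts, Spearman's rho between the host's ratio and the median of its SNORD genes was 0.09 over 63 hosts in overexpression and 0.02 over 64 in knockdown, zeros at 3 reads. Points from the same library share its depth and preparation. RPL21 was near 0 in 3 libraries (0.02 RPKM in the vector) and at 55.7 RPKM in knockdown, so its ratio may hold a failed estimate.

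**Figure D5:**
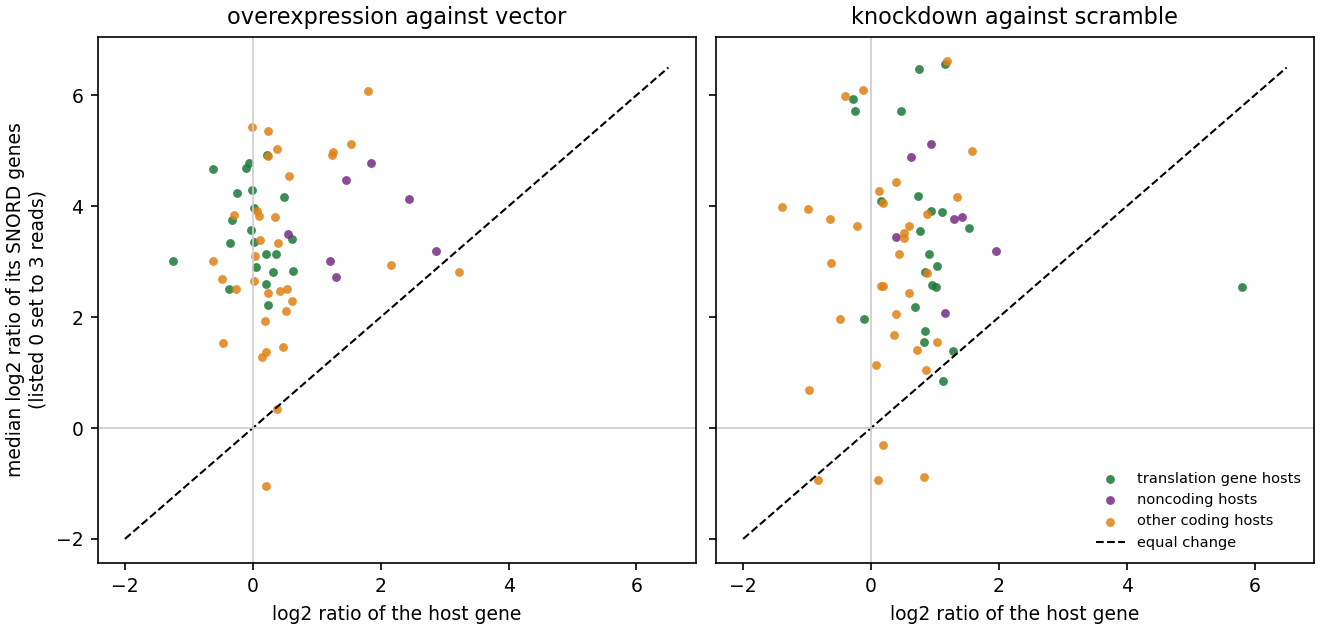
Median log2 ratio of the SNORD genes of a host with listed zeros at 3 reads (y) against the log2 ratio of the host itself (x), one point per host, coloured by kind; the dashed line marks equal change. Points lie above the line for 60 of 63 hosts in the overexpression panel and 58 of 64 in the knockdown panel, and the point far right in the second panel is RPL21.

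Few genes of the snoRNA particle and of snoRNA processing passed 2-fold, in shares near those of all genes. Of 56 such genes, all measured, 8 were higher and 1 lower in overexpression (median log2 ratio 0.23), beside 10.6% and 7.28% of all genes, and 8 were higher and 3 lower in knockdown (0.36), beside 12.4% and 8.52%. NOP58, a core protein of the particle and itself a SNORD host, was the one core protein past 2-fold in both pairs, at 54.6, 160, 46.0 and 118 RPKM. FBL, the methyltransferase fibrillarin, was at 156, 175, 183 and 426 RPKM and passed 2-fold in knockdown. Other genes higher in overexpression were the assembly factors NUFIP1 and TAF9, UTP6, WDR36 and WDR43 of the small subunit processome, and EXOSC8 and DIS3 of the RNA exosome, and IMP3, a protein of the U3 particle, was lower (64.2 to 25.9 RPKM). Others higher in knockdown were the assembly ATPase RUVBL2, C12orf45, the U3 protein RRP9 and the exosome genes EXOSC4, EXOSC5 and MPHOSPH6, and UTP20, the exonuclease XRN1 and the export receptor XPO1 were lower.

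Over the 91 members above 0 in all 4 libraries, Spearman's rho of RPKM was 0.96 between overexpression and knockdown and 0.86 between vector and scramble. It was 0.88 between vector and overexpression, 0.87 between vector and knockdown, 0.81 between scramble and knockdown and 0.79 between scramble and overexpression. The scramble library had the fewest member reads, 2132, and the lowest of these values involve it. These levels share the lengths that set the RPKM of a read. The 10 members with most reads held 57.1%, 43.7%, 65.2% and 47.5% of member reads. SNORD83B led in the knockdown library. The overexpression and knockdown ratios had no control in common, and their rho was 0.57 over the same 91 members and 0.85 over the 35 with at least 10 reads in every library. Over the 91, rho between ratio and gene length was -0.13 for overexpression and 0.02 for knockdown.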

How the data were processed

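Values were RPKM for 4 libraries, 1 per group, as deposited by the authors, with 1 value per gene symbol. Tools listed in the submitters' processing notes are Cufflinks 2.2.0, TopHat2 2.0.13, SAMtools 1.1 and Bowtie2 2.2.4, with hg19 as build, and the annotation is not given in the sources used here. Per the labels' protocols, poly(A) RNA was enriched from total RNA. The labels' extraction text speaks of fewer samples than the series has, so a shared preparation is not certain.

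Members and gene lists were chosen with earlier results of these data known. Measured genes reached 1 RPKM in at least one of the libraries compared, ratios were log2((RPKM + 1)/(RPKM + 1)), which understate the change of low genes but overstate ratios of these short genes over a listed 0, since 1 RPKM is under 1 read there, and the threshold was 2-fold. No test was possible. A listed 0 can be a failed estimate.

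Hosts were genes of GENCODE 29 holding the member. They were on the same strand where the member's symbol and position matched GENCODE, and on either strand otherwise. SNORD113 to SNORD116 were grouped by symbol. No host was searched for SNORD115, SNORD116 and the other members at the SNORD116 locus. Of 257 members 237 matched GENCODE and 256 a RefSeq table (GRCh38.p14), whose lengths were used. Only 104 had the same length in both. The RPKM of 1 read was fitted against length (60 to 150 nt) from the steps of small RNA genes. On simulated data a first version of this fit failed for a thinly read library, following multiples of the unit at long lengths, and it was replaced by one in which libraries share the curve of the best supported. The new version recovered the simulated units in 10 draws of 1554 genes to within 0.000204%. The degree of the offset between libraries was set by how many real values came out whole. SNORD17, SNORD49B, SNORD115-45, SNORD115-47 and a row joining 3 SNORD115 genes have no read estimate. Depth was estimated from steps of 2125 long genes, with a fitted 200 to 210 nt taken off each length. Of their low values 64.9% to 71.1% came out whole. Read ratios have exact 95% conditional intervals, sums exact ones of the same kind.

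Genes were named by rule: in each kind of host and pair the 4 highest and 4 lowest ratios among members of 10 RPKM or more, every member called lower, every imprinted member above 1 RPKM, and hosts with 4 or more members. Only part of that list is described in the text. For example, SNORD37, SNORD51, SNORD43, SNORD4A and SNORD10 are not, and no host comparison is given for hosts such as RPL13A, RPL23A and RPL7A. The counts of named members under the alternatives use the whole list of members. One member and its host, which the counts include, are not reported by name here. SNORD18A, SNORD27, SNORD31, SNORD32A, SNORD32B, SNORD44, SNORD76, SNORD77, SNORD83B, SNORD100 and the unread SNORD116 copies were added after their values were seen. Marker values were chosen after they were seen. Alternatives changed the pseudocount, filter, scaling and control. Python 3.11.15, numpy 2.4.6, pandas 2.3.3, scipy 1.17.1 and matplotlib 3.10.9 were used.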

Additional observations from a re-analysis of the deposited data

How the results depend on the processing

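Rescaling each library to a common sum of all RPKM, most of which is SNORD in the MAGE-A1 libraries, moved the median log2 ratio of all genes by -1.89 in overexpression and -1.87 in knockdown and by 0.32 between the controls. It left 12537 and 12523 genes lower in the main pairs. The SNORD median was then 1.97 in overexpression and 3.52 in knockdown, and that of translation gene hosts 2.15 and 3.41. It turned the direction of 9 named members in overexpression, SNORD116-19 -1.27, SNORD116-26 -0.33, SNORD116-4 -1.45, SNORD12 -0.15, SNORD127 -0.94, SNORD1C -0.13, SNORD42A -1.41, SNORD59B -0.0800 and SNORD95 -1.10, and of 10 in knockdown, SNORD116-20 -0.91, SNORD116-26 -0.14, SNORD116-4 -1.27, SNORD19B -0.18, SNORD29 -0.18, SNORD41 -0.23, SNORD42A -0.75, SNORD59B -1.21, SNORD66 -0.23 and SNORD95 -0.58 (log2 ratios). A common upper quartile of the other genes turned none of the named members.

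Against the other control SNORD94 turned from -0.98 to 3.46 in overexpression. The SNORD median against it was 6.08 for overexpression and 3.56 for knockdown, and that of translation gene hosts 5.58 and 4.00. With a pseudocount of 10 the knockdown SNORD median was 4.46. Alternatives added after seeing the data gave the following. With listed zeros set to 3 reads the medians were 3.39 in overexpression, 3.14 in knockdown and -0.52 between the controls, those of translation gene hosts 3.50 in knockdown and -0.29 between the controls, and 9 SNORD113 to SNORD116 genes were past 2-fold between the controls. Over members above 0 in both libraries the knockdown median was 3.96, and 4.195 in translation gene hosts. Keeping members of 10 or more reads left 17 SNORD113 to SNORD116 genes past 2-fold in overexpression, 44 SNORD genes and 4 of the imprinted clusters in scramble against vector, and a knockdown median of 4.77 in translation gene hosts. Of the group results under all alternatives, 99 kept their direction and size and 21 moved. Of single members 881 values kept their call, 27 dropped below 2-fold, 6 passed it and 20 turned with a call on either side.

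No paired analysis was possible because each group holds 1 library, and no library could be left out. Depth limits the members of few reads: 44 members had 1 to 3 reads in the vector library and 40 in the scramble library.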
